A study of Mus musculus with 18 samples.

Results

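The MHC class II pathway was examined through 7 genes of the mouse dorsal horn of the spinal cord (DHSC). The members were the rows of the count table whose Ensembl ID carries the symbol H2-Aa, H2-Ab1, H2-Eb1, Cd74, Ciita, H2-DMa or H2-DMb1. They are 7 of 55573 genes, and all 7 passed the filter on low counts in each comparison described here. Expression was measured by RNA-sequencing in 18 C57BL/6J adult mice, 1 ipsilateral DHSC per sample, taken 2 h after injection of 2% formalin into the hindpaw. The groups were 6 F1/proestrus females, 6 F2/metestrus females and 6 males. F1 and F2 name clusters of females that the study formed from the time course of their pain behavior, and the cycle stage was read from vaginal smears after the test. All 18 mice received formalin, so no level here describes a DHSC without formalin, and cycle stage and behavioral cluster cannot be told apart. Replicates 1 to 3 and 4 to 6 of each group carry library numbers from 27 to 35 and from 188 to 196, called here the first and the second library series. The study asked how the spinal response to formalin differs between the sexes and along the cycle.

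Total counts ran from 73590509 to 125724156 per sample, and 3 counts, taken as the floor, were 0.0240 to 0.0407 CPM (counts scaled to library totals after TMM normalization). This floor covers counting error only. The dorsal horn neuron markers were present in all samples, with Penk, the enkephalin precursor, at a mean of 358 CPM and Slc17a6, a vesicular glutamate transporter, at 258 CPM. Their summed level was 668 to 844 CPM in females and 827 to 1029 CPM in males, 2 of the 8 listed markers being up-regulated in males (Penk and Grp). Of the 25180 genes tested between the library series, 26.9% passed an FDR of 5%, so results were also read within a series.

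MHC class II molecules are pairs of an alpha and a beta chain that carry peptides from endocytosed proteins to the cell surface, where CD4 T cells read them. H2-Aa and H2-Ab1 encode the 2 chains of I-A, and H2-Eb1 the beta chain of I-E, whose alpha chain is not made in C57BL/6 mice. Cd74 encodes the invariant chain, which fills the groove during assembly and directs the complex to endosomes. H2-DMa and H2-DMb1 encode chains of H2-DM, which exchanges the remnant of the invariant chain for other peptides, and Ciita encodes the transactivator on which class II transcription depends. In the central nervous system these genes are best known from border-associated macrophages of the meninges and perivascular space, from dendritic cells, and from microglia after activation.

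Class II promoters share a conserved module of an X box, bound by the RFX complex, an X2 box that resembles a cyclic AMP response element (CRE), and a Y box bound by NF-Y. CIITA binds no DNA and acts through these proteins. The 150 bases before the RefSeq start (GRCm38.p6) are shown for the 3 members in which letters of the module were found, each on its coding strand, 5′ to 3′. The capitals mark AACNGATG for the X box, TGACGTCA for the CRE, and ATTGG for the Y box, which is written CCAAT where it lies on the other strand. The windows are shown for these letters, and a link of the letters to the levels of the members was not tested.
H2-Eb1: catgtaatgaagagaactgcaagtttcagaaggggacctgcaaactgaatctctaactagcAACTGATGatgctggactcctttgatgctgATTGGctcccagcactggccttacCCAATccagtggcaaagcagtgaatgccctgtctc
H2-DMb1: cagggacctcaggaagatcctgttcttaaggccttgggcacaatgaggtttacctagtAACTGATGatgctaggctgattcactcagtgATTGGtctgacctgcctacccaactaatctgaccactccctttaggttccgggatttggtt
H2-Aa: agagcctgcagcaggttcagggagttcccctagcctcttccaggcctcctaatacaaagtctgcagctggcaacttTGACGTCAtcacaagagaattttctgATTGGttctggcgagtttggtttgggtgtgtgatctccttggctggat

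The H2-Eb1 window is chr17:34305717-34305866 on the plus strand, with the X box beginning 89 bases and the Y box 59 bases before the start, and a Y box on the other strand 35 bases before it. In H2-DMb1 (chr17:34153041-34153190, plus strand) the X box began 92 bases and the Y box 61 bases before the start. The H2-Aa window (chr17:34287824-34287973, minus strand) held the CRE 74 bases and the Y box 48 bases before the start, and no match to the X box letters. Both windows listed for H2-DMa, the only other member with listed windows, held none of the 3 motifs. They are chr17:34122682-34122831 and chr17:34125368-34125517, inside the GENCODE vM21 locus of H2-DMa given below. Part of the H2-DMb1 window also lies inside its GENCODE locus. For these 2 genes the letters found before the start thus depend on the annotation used. Searched on both strands, the Y box letters occurred in 24.5% of 32851 promoter windows, the X box letters in 1.14% and the CRE in 1.36%. No 2 of these motifs overlapped in the 3 windows shown. An X box followed within 30 bases by a Y box on the same strand was found in 9 windows (0.0274%). These belonged to H2-Eb1, H2-Eb2, H2-DMb1, H2-DMb2, H2-M10.4, BC051142, Gm30338, Gm35697 and Olfr1348. A match gives letters in a window and was not tested as a site.

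Levels between genes were compared per kilobase of exon (GENCODE vM21). Cd74 was the highest at a mean of 24.1 CPM per kb over the 18 samples, and it exceeded H2-Ab1, the next in order, in 18 of 18 samples by 3.53 to 4.82 times. H2-Ab1 (6.15), H2-DMa (5.34), H2-Eb1 (4.81), H2-DMb1 (3.31) and H2-Aa (2.66) followed. Each of these neighbors overlapped the next in range, although H2-Eb1 exceeded H2-DMb1 in 18 of 18 samples. Ciita was the lowest at 0.144 CPM per kb, with 100 to 208 counts per sample, and H2-Aa exceeded it by 7.38 to 24.2 times. Ranking by length depends on the annotated exons, which for H2-Aa add up to 3798 bases and for H2-Ab1 to 2568.

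Both I-A chains were present in each of the 18 samples, far above the floor. H2-Aa (chr17:34282744-34287823, minus strand) ranged from 5.11 to 13.7 CPM in F1/proestrus (median 9.59), from 6.84 to 15.6 CPM in F2/metestrus (median 9.42) and from 8.13 to 11.9 CPM in males (median 10.6). H2-Ab1 (chr17:34257689-34269419, plus strand) ranged from 8.78 to 21.5 CPM in F1/proestrus (median 14.2), from 10.4 to 26.6 CPM in F2/metestrus (median 14.97) and from 10.4 to 20.9 CPM in males (median 16.2). For both chains the males lay inside the range of the 12 females.

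The I-E beta chain showed a like picture. H2-Eb1 (chr17:34305867-34316674, plus strand) ranged from 5.35 to 14.2 CPM in F1/proestrus (median 7.95), from 6.61 to 14.7 CPM in F2/metestrus (median 7.95) and from 7.68 to 13.3 CPM in males (median 10.1). An antisense gene, Gm20513, overlaps its locus but shares no exon base with it. The I-E alpha gene is listed as the pseudogene H2-Ea-ps, at a mean of 0.0015 CPM, below the floor.

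Cd74, the invariant chain (chr18:60803848-60812652, plus strand), ranged from 22.2 to 57.4 CPM in F1/proestrus (median 39.4), from 27.0 to 62.4 CPM in F2/metestrus (median 40.3) and from 32.9 to 50.5 CPM in males (median 41.95). As for the beta and alpha chains, the highest and the lowest samples were both female.

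Ciita had the fewest counts of the 7 members. Its locus is chr16:10480059-10528418 on the plus strand, and 3.45% of its exon bases are shared with Dexi, on the other strand. It ranged from 1.201 to 1.82 CPM in F1/proestrus (median 1.43), from 1.11 to 1.62 CPM in F2/metestrus (median 1.22) and from 1.26 to 1.48 CPM in males (median 1.32). Counting error alone gives a coefficient of variation (CV) of about 8.50% at these counts, against 14.7% observed over the 18 samples.

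For the H2-DM genes the highest sample was a male. H2-DMa (chr17:34119541-34139101, plus strand) ranged from 14.8 to 19.5 CPM in F1/proestrus (median 16.4), from 14.99 to 21.1 CPM in F2/metestrus (median 17.5) and from 18.2 to 26.0 CPM in males (median 20.4). H2-DMb1 (chr17:34153072-34160230, plus strand) ranged from 3.39 to 6.49 CPM in F1/proestrus (median 4.57), from 4.08 to 6.76 CPM in F2/metestrus (median 5.48) and from 4.51 to 11.2 CPM in males (median 6.05). The sexes overlapped for both genes. Both peaks belonged to the fifth male. Brd2 and 3 other genes overlap H2-DMa, sharing 10.4% of its exon bases, and H2-DMb1 has a near copy, H2-DMb2. Whether the counting used strand is not given in the sources used here, so part of these counts is uncertain.

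**Figure D1:**
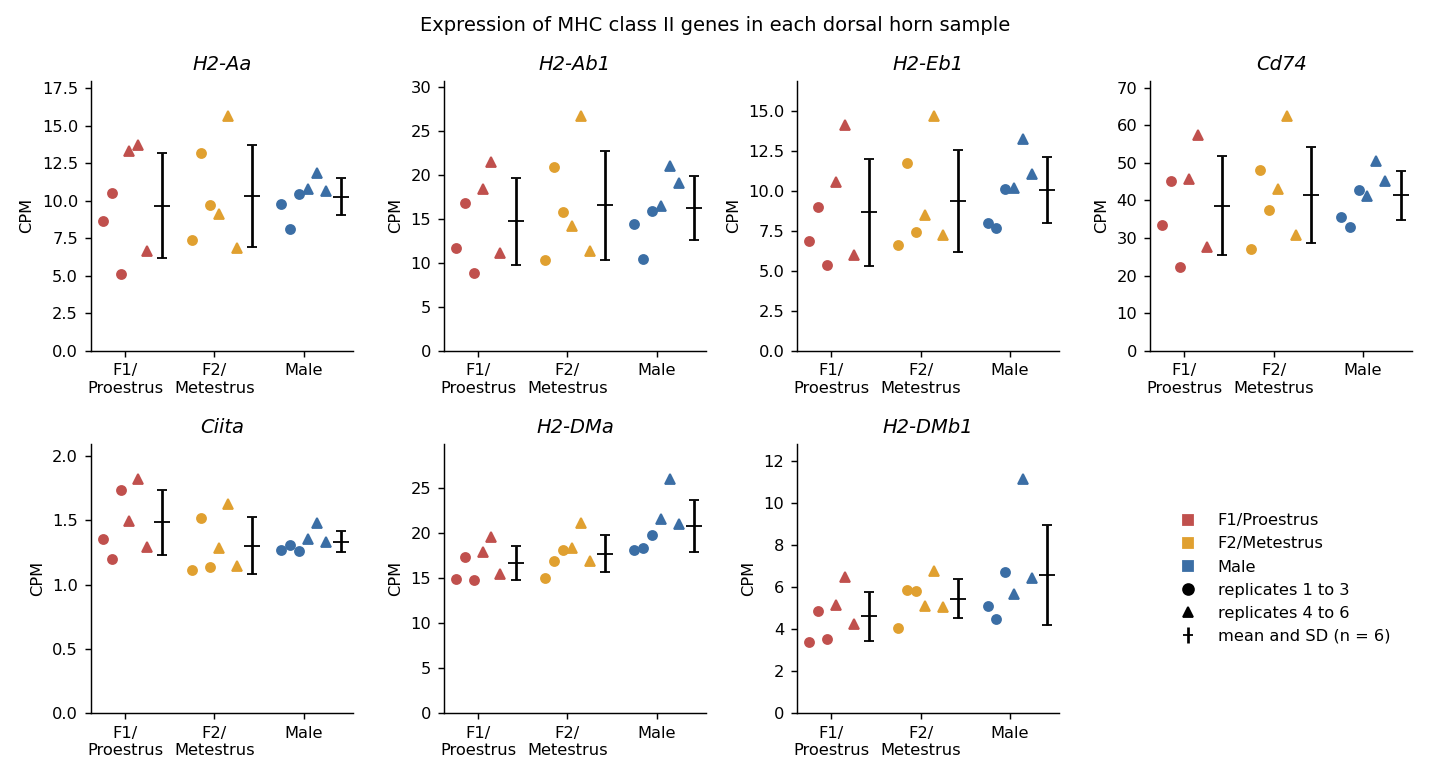
CPM of each MHC class II gene in the 18 DHSC samples, by group on the x axis. Circles are replicates 1 to 3, triangles replicates 4 to 6, and the black bars show the mean and SD (n = 6). The male values of H2-Aa and Cd74 fall within the female range. For H2-DMa the males run from 18.2 to 26.0 CPM and the females from 14.8 to 21.1 CPM, so the ranges overlap.

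H2-Aa, H2-Ab1, H2-Eb1 and Cd74 differed between animals of the same group much more than most genes did. The SD of log2 CPM within groups was 0.43 for H2-Aa, 0.46 for H2-Ab1, 0.44 for H2-Eb1 and 0.41 for Cd74, against a median of 0.16 over the 17763 genes with a mean of at least 1 CPM. Of these genes, 96.0% (Cd74) to 97.3% (H2-Ab1) had a smaller SD. Counting error was small beside this spread: its CV was 1.57% to 3.26% for the 4 genes, while the observed CV was 26.3% to 30.4%. H2-DMb1 was similar, with an SD of 0.36. Ciita (0.20) and H2-DMa (0.17) varied about as much as the median gene.

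The spread of the 4 genes was numerically wider in females than in males. The CV of H2-Aa was 33.2% over the 12 females and 12.2% over the 6 males, that of H2-Ab1 34.8% and 22.6%, that of H2-Eb1 34.7% and 20.5%, and that of Cd74 31.1% and 15.5%. This difference in spread was not tested. The same animals stood at the ends for each of the 4 genes: the fifth F2/metestrus sample was the highest, followed by the fifth F1/proestrus sample, and the third F1/proestrus sample was the lowest. That lowest animal had the next to highest Ciita level of all 18 (1.74 CPM). In bulk tissue, a smaller number of class II-expressing cells and less RNA per cell cannot be told apart.

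Across the 18 samples the 3 class II chains and Cd74 rose and fell as a unit. The 6 pairs among them had a Pearson r of log2 CPM between 0.929 and 0.960 and a Spearman rho between 0.944 and 0.965 (permutation test with 100000 resamples, two-sided, adjusted p = 3e-05 over 21 pairs for each, from a raw p of 1e-05, the smallest the resamples allow). The correlations held within the first series (0.896 to 0.967) and within the second (0.941 to 0.974). The third F1/proestrus and the fifth F2/metestrus sample lay farthest from the median of the first gene of each pair (H2-Aa, H2-Ab1 or H2-Eb1). Without these 2 samples the correlations were 0.899 to 0.940. Within a sample the ratios of these genes were therefore narrow: the ratio of H2-Aa to Cd74 was 0.249 with a CV of 8.42%, and the widest of the 6 ratios, H2-Aa to H2-Eb1, had a CV of 11.1%.

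The H2-DM genes followed this unit more loosely and each other closely. H2-DMa and H2-DMb1 had an r of 0.915 (rho 0.823, permutation test, adjusted p = 3e-05), with 0.856 and 0.924 within the first and second series, and 0.833 without the third F1/proestrus and the fifth male sample. Their 8 pairs with the class II chains and Cd74 had r from 0.646 (H2-Aa with H2-DMa) to 0.808 (H2-Eb1 with H2-DMb1), and rho from 0.645 to 0.874. All 8 passed the test, the highest adjusted p being 0.00529 for r and 0.00683 for rho. Within the series they lay between 0.544 and 0.800.

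**Figure D2:**
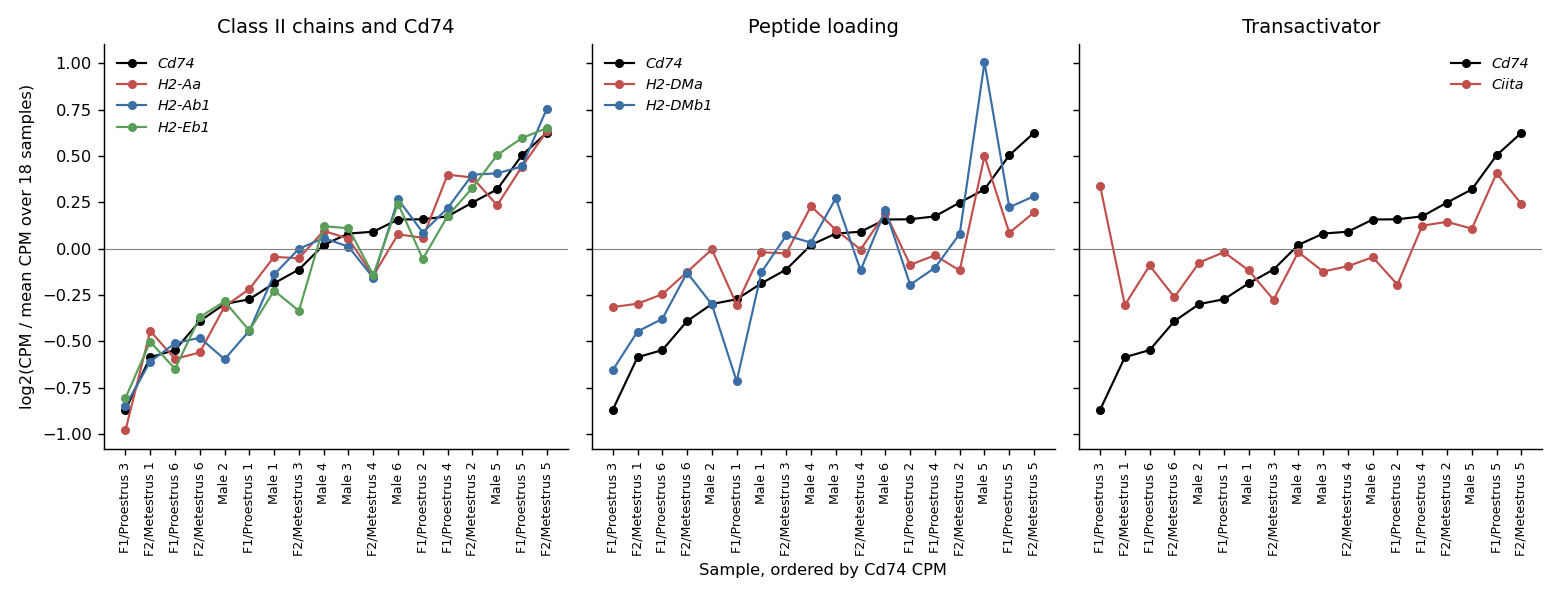
Log2 ratio of each gene's CPM to its mean over the 18 samples (y axis), with samples ordered along the x axis by Cd74. H2-Aa, H2-Ab1 and H2-Eb1 follow Cd74 (r from 0.929 to 0.960), H2-DMb1 peaks in the fifth male (11.2 CPM), and Ciita is high in the sample with the lowest Cd74.

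No linear relation of Ciita to its target genes was detected over all 18 samples. Its r was 0.339 with H2-Aa, 0.388 with H2-Ab1, 0.462 with H2-Eb1, 0.360 with Cd74, 0.210 with H2-DMa and 0.195 with H2-DMb1. None of the 6 passed the permutation test on r, the smallest adjusted p being 0.0729. On ranks the pairs with H2-Aa (rho 0.509, adjusted p = 0.0433 by permutation) and H2-Eb1 (rho 0.505, adjusted p = 0.0438) did pass.

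The library series gave different pictures for Ciita. Among replicates 4 to 6 its r with the 3 class II chains and Cd74 was 0.820 to 0.857, and among replicates 1 to 3 it was −0.351 to −0.147, so the relation did not hold within the first series. The third F1/proestrus sample decided this sign. Without it, a choice made after its values were seen, r with these 4 genes was 0.716 to 0.800 over 17 samples and 0.383 to 0.613 over the 8 remaining samples of the first series. With H2-DMa and H2-DMb1, r without this sample stayed lower (0.429 and 0.428 over 17 samples). The sexes differed here. Over the 6 males r was 0.933 with H2-DMa and 0.780 with H2-DMb1, against 0.299 and 0.212 over the 12 females. With the chains and Cd74 it was 0.592 to 0.767 over the males and 0.344 to 0.487 over the females. The CV of Ciita over the males was 6.06%, below the 8.49% of counting error alone.

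**Figure D3:**
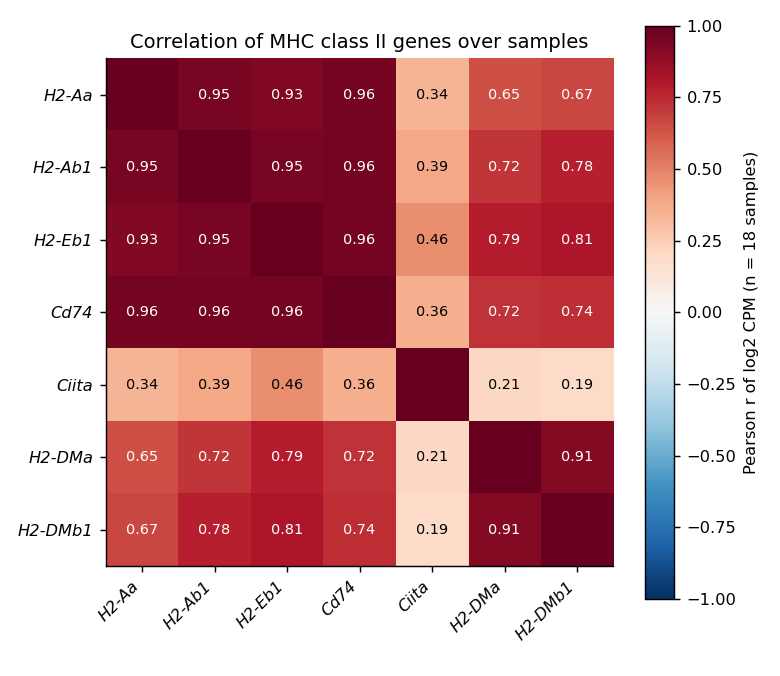
Pearson r of log2 CPM over the 18 samples for each pair of the 7 genes (color scale from −1 to 1). The block of H2-Aa, H2-Ab1, H2-Eb1 and Cd74 lies between 0.929 and 0.960, and the row of Ciita between 0.195 and 0.462.

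No class II gene was a DEG along the estrus cycle. Between F2/metestrus and F1/proestrus, edgeR's quasi-likelihood test called 0 of the 7 at an FDR of 5%, where 0% of 24042 genes did (596 genes, 2.48%, had an unadjusted p under 0.05, none of them a member, and DESeq2 called 2 genes, neither of them a member). The log2 fold change was 0.09 ± 0.25 (SE, n = 6 per group) for H2-Aa, 0.16 ± 0.25 for H2-Ab1, 0.11 ± 0.24 for H2-Eb1 and 0.10 ± 0.23 for Cd74. It was −0.19 ± 0.14 for Ciita, 0.08 ± 0.09 for H2-DMa and 0.24 ± 0.16 for H2-DMb1. The adjusted p was 0.99998 for each of them. The median of the 7 was 0.10, against −0.00038 over all genes tested.

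These intervals show what the spread between animals left unresolved. For Cd74 the 95% interval of the fold change ran from 0.765 to 1.498, and for H2-Ab1 from 0.779 to 1.61, which leaves room for differences of that size. H2-DMa was measured more tightly, with an interval from 0.929 to 1.21. The sign of the class II chains rested on the fifth F2/metestrus sample: without it the log2 fold change was −0.064 for H2-Aa, −0.020 for H2-Ab1, −0.062 for H2-Eb1 and −0.050 for Cd74.

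Between males and females no member was a DEG in edgeR's main fit either, and the H2-DM genes lay closest to the threshold. Of 24862 genes 0.197% passed an FDR of 5% (49 genes), and 0 of the 7 did. At an unadjusted p under 0.05 the members were H2-DMa and H2-DMb1, 2 of 7, both higher in males, where 9.72% of all genes lay under this p, 5.84% of all genes with higher values in males. H2-DMa had a log2 fold change of 0.28 ± 0.08 (SE, edgeR, unadjusted p = 0.00295, adjusted p = 0.266), and H2-DMb1 one of 0.39 ± 0.17 (unadjusted p = 0.0307, adjusted p = 0.462). H2-DM is the peptide exchanger of the pathway. The RNA of its 2 chains was 1.21 and 1.31 times as high in males as in females, short of significance, and protein was not measured. With the library series as a covariate, where 0.528% of genes were called, the adjusted p of H2-DMa was 0.0599, and DESeq2, which called 0.696% of genes (166), called 0 of the 7. Of 15 alternatives other than leaving out a sample, 1 called H2-DMa. It was edgeR with the replicate number as a block (adjusted p = 0.0314), although these numbers did not pair the samples. Without the fifth male the log2 fold changes were 0.19 and 0.16.

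For the presenting chains, Cd74 and Ciita the intervals of the difference between the sexes span 0. The log2 fold change of males against females was 0.04 ± 0.19 for H2-Aa, 0.05 ± 0.20 for H2-Ab1, 0.16 ± 0.19 for H2-Eb1, 0.05 ± 0.18 for Cd74 and −0.06 ± 0.11 for Ciita (adjusted p from 0.803 to 0.954). For Cd74 the 95% interval of the fold change was 0.801 to 1.33. The median of the 7 was 0.05, against −0.0013 over all genes tested. The cycle and the sex comparisons both contain the 12 females and are not independent.

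Between the library series the members had the same sign. All 7 log2 fold changes of replicates 4 to 6 against 1 to 3, with group in the model, were positive, with a median of 0.32 against 0.0038 over all genes, and 1 of 7 passed an FDR of 5% in this direction, where 14.2% of all genes did. Most members correlated with each other over these same samples, so the 7 signs are not independent. H2-DMa was up-regulated in replicates 4 to 6 (0.21 ± 0.06, adjusted p = 0.0150), a call lost without the fifth male (adjusted p = 0.0662). H2-DMb1 (0.35 ± 0.14, adjusted p = 0.0647), H2-Eb1 (0.40 ± 0.16, 0.0806), H2-Ab1 (0.36 ± 0.18, 0.141), Cd74 (0.32 ± 0.15, 0.140), H2-Aa (0.25 ± 0.17, 0.298) and Ciita (0.11 ± 0.10, 0.458) did not pass. The fold changes by sex or by cycle did not differ detectably between the series for any member (edgeR interaction test, adjusted p of at least 0.970).

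**Figure D4:**
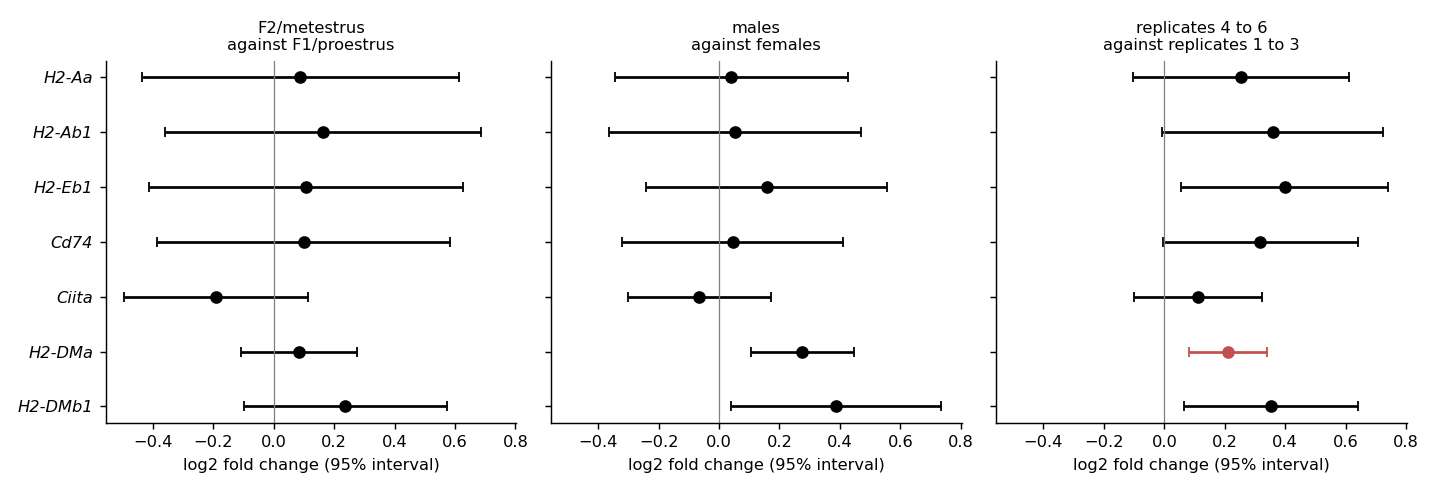
Log2 fold change (x axis, with its 95% interval) of each member in the 3 comparisons, from edgeR. The red point, H2-DMa between the library series (0.21), is the only one past an FDR of 5%, and in the comparison of the sexes the intervals of H2-DMa and H2-DMb1 lie above 0 before adjustment.

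The other class II genes had lower mean CPM than each of the 7 members. H2-Oa and H2-Ob, whose product restrains H2-DM, had means of 0.346 and 0.623 CPM, H2-DMb2 0.347 CPM, and H2-Eb2 0.0362 CPM, too low to be tested. None was a DEG by sex or cycle among the 3 tested. H2-DMb2 was up-regulated in replicates 4 to 6 (0.65 ± 0.19, adjusted p = 0.0174). In F2/metestrus against F1/proestrus H2-Oa had a log2 fold change of 0.31 ± 0.27 and H2-DMb2 one of −0.32 ± 0.30, and in males against females the 3 lay between −0.02 and 0.23.

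The proteins through which CIITA acts were read from a list of 7 genes. Rfx5, Rfxap and Rfxank of the RFX complex, Nfya, Nfyb and Nfyc of NF-Y, and Creb1 gave 0 of 7 calls by cycle and 0 of 7 by sex, where 0% and 0.197% of all genes were called. None had an unadjusted p under 0.05, against 2.48% and 9.72% of all genes. In edgeR's test the smallest p by sex belonged to Creb1 (−0.16 ± 0.11, unadjusted p = 0.163) and by cycle to Rfx5 (0.04 ± 0.06, unadjusted p = 0.518). Between the library series Nfyb (0.15, adjusted p = 0.0125) and Nfyc (0.27, adjusted p = 0.000875) were higher and Creb1 (−0.29, adjusted p = 0.0100) lower in replicates 4 to 6. At 30.6 CPM for Rfx5 and 25.5 CPM for Nfyb, these partners had far more counts than Ciita.

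The list of peptide loading holds 8 proteases that prepare peptides or trim the invariant chain, the protease inhibitor Cst3 (cystatin C) and the reductase Ifi30, and gave 0 calls of 10 by cycle and 0 of 10 by sex, where 0% and 0.197% of all genes were called. Ctss, encoding cathepsin S, which cuts the invariant chain, had a mean of 80.0 CPM and a log2 fold change of 0.24 ± 0.08 in males (unadjusted p = 0.00419, adjusted p = 0.294 in edgeR). Ifi30, the lysosomal thiol reductase, had 0.27 ± 0.13 (unadjusted p = 0.0492, adjusted p = 0.514). Between the library series 7 of the 10 were higher in replicates 4 to 6 (Cst3, Ctsb, Ctsd, Ctsl, Ctss, Ctsz and Ifi30), where 14.2% of all genes were. By cycle the genes nearest to the threshold were Sppl2a (0.10 ± 0.08) and Ctsl (−0.16 ± 0.13), both with an adjusted p of 0.99998 in edgeR. The ubiquitin ligases of class II turnover, March1 and March8, gave 0 of 2 calls by cycle and by sex, and March8 was lower in replicates 4 to 6 (−0.11, adjusted p = 0.0169).

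The interferon gamma route, which induces Ciita, gave 0 of 8 calls by cycle and by sex, against the same shares of all genes. Ifng itself had a mean of 0.00391 CPM, below the floor, and could not be tested. Irf1, which acts at the Ciita promoter, had a log2 fold change of 0.41 ± 0.18 in F2/metestrus against F1/proestrus (edgeR, unadjusted p = 0.0408, adjusted p = 0.99998) and of −0.37 ± 0.16 in males against females (unadjusted p = 0.0332, adjusted p = 0.475). Neither difference passed the FDR. Between the library series Ifngr2 was higher (0.13, adjusted p = 0.0223), and Jak1 (−0.19, adjusted p = 0.0263) and Jak2 (−0.23, adjusted p = 0.00275) were lower in replicates 4 to 6.

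Costimulatory genes and Cd4 gave 0 of 8 calls by cycle, by sex and between the library series, where 0%, 0.197% and 26.9% of all genes were called. Cd274, encoding PD-L1, had a log2 fold change of 0.63 ± 0.18 in F2/metestrus against F1/proestrus (unadjusted p = 0.00365, adjusted p = 0.99998) and −0.44 ± 0.19 in males (unadjusted p = 0.0265, adjusted p = 0.439). Cd40 had −0.58 ± 0.18 in males (unadjusted p = 0.00325, adjusted p = 0.272). By cycle Cd80 came next, at −0.22 ± 0.20 (adjusted p = 0.99998 in edgeR). Cd4, the T cell co-receptor that binds class II molecules, had a mean of 0.0815 CPM.

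The genes with the profile most like that of the class II chains and Cd74 were ranked by their mean Pearson r with these 4 genes over the 18 samples, among 24858 genes. Mir5107 (0.952) lies within the Cd74 gene, so the counts of the 2 may come from the same transcripts. After it came Mxra8 (0.815), Gm12013 (0.801), Serping1 (0.786), Plbd1 (0.780), Cav1 (0.772), Cbr2 (0.772), B2m (0.770), Fxyd5 (0.769) and Dcn (0.768). Serping1 encodes the C1 inhibitor of complement, B2m the light chain of MHC class I, Dcn the matrix proteoglycan decorin and Cbr2 a carbonyl reductase found in border-associated macrophages. H2-DMb1 ranked 23 (0.750), H2-DMa 43 (0.718) and Ciita 2237 (0.387). For all genes the 5th and 95th percentiles were −0.442 and 0.461. These values share libraries and depth and are given as a description.

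Cd74 moved with the sum of meningeal fibroblast markers, and no relation to the sum of microglia markers was detected. The summed CPM of 6 meningeal fibroblast markers, led by Col1a2 (126 CPM) with Lum as the lowest (9.96 CPM), correlated with Cd74 at r = 0.821 (rho 0.841, permutation test, adjusted p = 0.000495 for r and 0.00033 for rho, over 33 relations). It was 0.869 within the first series, 0.832 within the second, 0.880 over the 12 females and 0.747 over the 6 males. Without the fifth F1/proestrus and the fifth male, the 2 samples farthest from the median of the sum, it was 0.781. The sum ran from 224 to 489 CPM in females and from 272 to 470 CPM in males. Not all listed markers shared the relation. The mean r with the class II chains and Cd74 was 0.684 for Col1a1, 0.761 for Col1a2, 0.768 for Dcn and 0.755 for Lum. It was 0.265 for Slc6a13 and 0.157 for Igf2.

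The 10 microglia markers, led by Csf1r (135 CPM) with Aif1 as the lowest (3.50 CPM), gave r = 0.183 with Cd74 (rho 0.102, permutation test, adjusted p = 0.673 for r). Their sum was 347 to 402 CPM in females and 389 to 421 CPM in males. The 8 border-associated macrophage markers, led by F13a1 (9.97 CPM) with Ms4a7 as the lowest (0.492 CPM), gave r = 0.578 (rho 0.480, permutation test, adjusted p = 0.0622 for r). This was 0.733 and 0.781 within the first and second series. Their sum was 17.8 to 40.2 CPM in females and 26.0 to 39.6 CPM in males. The part of any of these cells in the class II levels was not tested.

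H2-DMa moved with Schwann cell markers, which were themselves higher in males. The sum of 6 markers of these cells, the myelinating glia of peripheral nerves and roots, correlated with H2-DMa at r = 0.886 (rho 0.856, permutation test, adjusted p = 0.00033 for both over 33 relations). It was 0.946 and 0.864 within the first and second series, 0.739 over the 12 females, 0.908 over the 6 males, and 0.784 without the fifth and sixth males. The relation was not particular to H2-DMa. With Cd74 the Schwann cell sum had r = 0.570 (rho 0.521, permutation test, adjusted p = 0.0622 for r). That r was 0.611 and 0.471 within the first and second series, 0.711 over the 12 females and 0.915 over the 6 males. The sum ran from 1238 to 2597 CPM in females and from 1845 to 4504 CPM in males, the fifth male being the highest. Pmp22 led the list (1024 CPM), Mpzl2 was the lowest (2.60 CPM), and 1 of the 6, Ncmap, was a DEG between the sexes (0.67 ± 0.11, adjusted p = 0.00654).

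With the logarithm of this sum as a covariate, an alternative added after seeing the data, the log2 fold change of H2-DMa in males was 0.0022 (adjusted p = 0.998) and that of H2-DMb1 −0.26 (adjusted p = 0.697). With the meningeal fibroblast sum in its place they were 0.20 (adjusted p = 0.344) and 0.19 (adjusted p = 0.577), and with the microglia sum 0.12 (adjusted p = 0.816) and 0.01 (adjusted p = 0.993). H2-DMa also correlated with the meningeal fibroblast (r = 0.700), dorsal horn neuron (r = 0.674) and microglia (r = 0.642) sums (permutation test, adjusted p = 0.0128, 0.0144 and 0.0266, and rho 0.709, 0.618 and 0.659). Over the 12 females alone these r were 0.800, 0.019 and 0.207, so for the neuron and microglia sums the relation did not hold within females. The neutrophil sum passed on ranks alone (rho 0.695, permutation test, adjusted p = 0.0150, with r = 0.545 and adjusted p = 0.0695). Since sex, these sums and H2-DMa moved together, their parts cannot be told apart. Over the 18 samples Ciita correlated with none of the 11 marker sums in the permutation test (the r with the fibroblast sum was 0.287 and with the Schwann cell sum 0.168). The library series differed here too. With the fibroblast sum the r of Ciita was −0.395 within the first series and 0.808 within the second. With the Schwann cell sum it was −0.340 and 0.360.

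**Figure D5:**
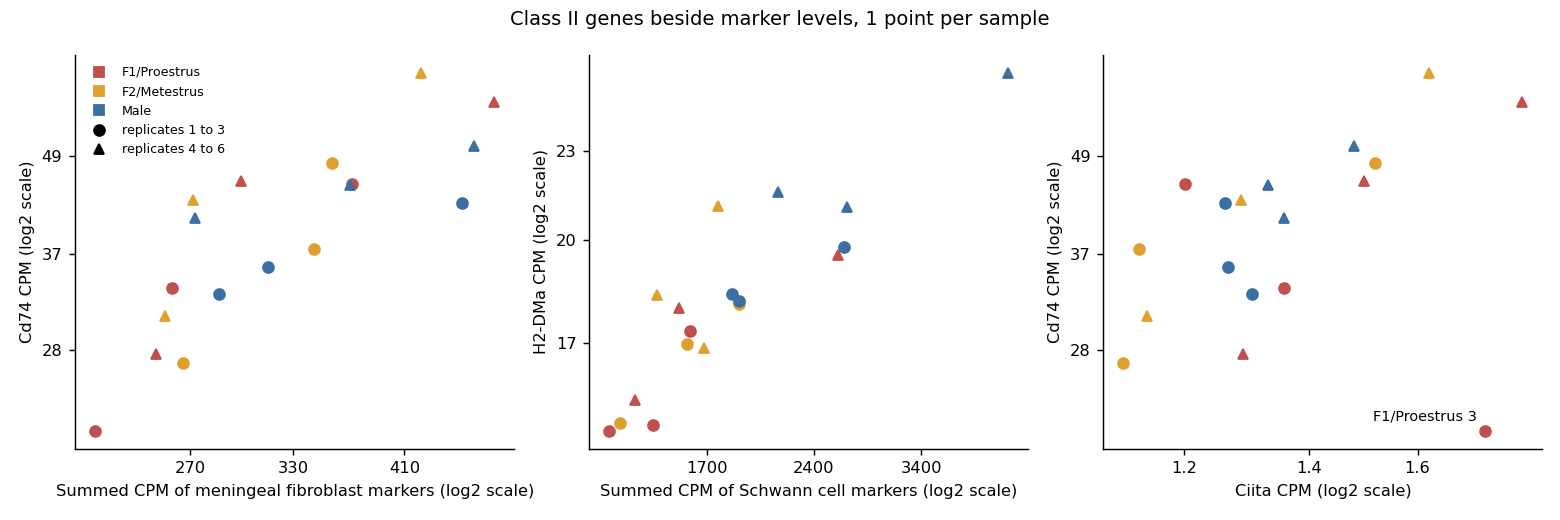
Cd74 against the summed CPM of meningeal fibroblast markers, H2-DMa against that of Schwann cell markers, and Cd74 against Ciita, with 1 point per sample and log2 axes. The first 2 relations have r = 0.821 and 0.886, and in the third the F1/proestrus sample 3 lies apart at high Ciita (1.74 CPM) and low Cd74 (22.2 CPM).

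The lists for dendritic cells and B cells held genes of very different levels. Of the dendritic cell list, Xcr1 (0.0536 CPM), Ccr7 (0.0337 CPM), Cd209a (0.0848 CPM) and Itgax (0.124 CPM) were low, Clec9a was at 0.168 CPM and Itgae at 1.61 CPM, and the list's sum of 31.4 to 40.5 CPM came mostly from Flt3 (22.0 CPM) and Zbtb46 (12.8 CPM). Of the B cell list, Ms4a1 (0.0396 CPM) was the lowest, Cd79a (0.124 CPM), Cd79b (0.297 CPM), Ighd (0.362 CPM) and Pax5 (0.535 CPM) lay above the floor, and Ighm was counted at 127 CPM. T cell genes Cd3d (0.0317 CPM), Cd3g (0.0346 CPM) and Cd8a (0.0135 CPM) were near or below the floor, Trac leading at 2.24 CPM.

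Markers of blood myeloid cells were also low. The monocyte list, led by Chil3 (0.820 CPM) with Ms4a4c as the lowest (0.0808 CPM), summed to 0.947 to 5.24 CPM, and the neutrophil list, led by S100a9 (2.09 CPM) with Ly6g as the lowest (0.0422 CPM), to 1.25 to 5.62 CPM in females and 3.77 to 18.7 CPM in males. Mpo, a granule enzyme, was the DEG of this list (1.37 ± 0.25 in males, adjusted p = 0.0161). Endothelial markers, from Cdh5 (5.12 CPM) to Flt1 (47.5 CPM), summed to 111 to 144 CPM.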

How the data were processed

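RNA-sequencing of 18 ipsilateral DHSC samples was analysed. The authors deposited raw counts for 55573 Ensembl genes: reads were uniquely mapped to mm10 with Subread (2.0.3 in the submitters' processing notes) and counted on exons with featureCounts. The strand setting is not given in the sources used here. The methods name a TruSeq kit, the labels SMART-Seq v4 with Nextera XT. A second table holds the authors' DESeq2 comparison (fold changes and p-values), of which only ID and symbol were used. Symbols were found for 53648 genes, and GENCODE vM21 held 55480 IDs.

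Counts were filtered with filterByExpr (minimum count 10, total 15), scaled with TMM and tested with edgeR 4.0.16 (quasi-likelihood, Benjamini-Hochberg, FDR of 5%) in R 4.3.3, as tested on simulated data. F2/metestrus was compared with F1/proestrus over 12 females, males with females over 18 samples, and the library series with group in the model. DESeq2 1.42.0, limma voom 3.58.1, other filters, size factors, covariates, subsets and omission of each sample were alternatives. Correlations used log2 CPM (prior count 2) and 100000 resamples. Named genes were the 7 members, the genes of each pathway list past the FDR or else the 2 with the smallest p, the highest and lowest gene of each marker list, and the 10 genes most similar to H2-Aa, H2-Ab1, H2-Eb1 and Cd74. Other marker genes were chosen after their values were seen. Members and lists were chosen with earlier results of these data known. No 2 libraries of a group agreed within sampling noise (chi-square per degree of freedom of at least 15.3). Nothing in the labels states separate litters, so p-values measure the spread between these samples. Some listed genes that met the naming rule are not reported here.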

Additional observations from a re-analysis of the deposited data

Results flagged for a closer look

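H2-DMb1 in the fifth male (11.2 CPM) lay far above the other 5 males, which ranged from 4.51 to 6.71 CPM. It was the only sample set apart in this way among the 21 sets of 6 values examined (7 genes in 3 groups), and chance sets apart about 1 in 20. The same sample had the highest H2-DMa (26.0 CPM) and the highest sum of Schwann cell markers (4504 CPM), and the part of the latter in the former was not tested.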

How the results depend on the processing

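Of the 7 members in 3 comparisons, the calls at an FDR of 5% changed for H2-DMa, H2-DMb1 and H2-Eb1 alone. Between the library series the adjusted p of H2-DMa was 0.0902 with group left out of the model and 0.0662 without the fifth male, that of H2-DMb1 0.0378 with DESeq2 and that of H2-Eb1 0.0482 without a filter on low counts. Leaving out a sample called H2-Eb1 in 3 of 18 cases and H2-DMb1 in 3 of 18. Replicate numbers did not pair the samples: same-numbered samples correlated at −0.105 to 0.228, over 0.1 in 9 of 18 pairs. With the replicate block, males against females gave 112 calls and H2-DMa an adjusted p of 0.0314, F2/metestrus against F1/proestrus gave 0 calls, and no other member was called.

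The count of DEGs between the sexes (49) was 166 with DESeq2, 31 with at least 10 counts in every sample, 133 with the series as a covariate, 16 in replicates 1 to 3 alone, 13 in replicates 4 to 6 alone, 13 against F1/proestrus alone and 22 against F2/metestrus alone. Added after seeing the data, the Schwann cell marker sum as a covariate gave 18 and the microglia sum 15. Leaving out a sample gave 25 (the fifth male) to 77 (the fifth F1/proestrus), and 30 without the fourth male. DESeq2 called 2 genes along the cycle. The cause of these shifts was not tested.

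The values whose sign turned were 0.16 or nearer to 0 for the class II chains, Cd74 and Ciita, and 0.39 for H2-DMb1. By cycle, replicates 4 to 6 alone gave −0.095 for H2-Aa and −0.016 for H2-Eb1. Leaving out a sample gave ranges of −0.064 to 0.22 for H2-Aa, −0.020 to 0.31 for H2-Ab1, −0.062 to 0.31 for H2-Eb1 and −0.050 to 0.25 for Cd74. By sex these ranges were −0.030 to 0.11 for H2-Aa, −0.046 to 0.14 for H2-Ab1 and −0.031 to 0.11 for Cd74. H2-Ab1 was −0.061 in replicates 1 to 3 alone. Against F2/metestrus alone H2-Aa was −0.013, H2-Ab1 −0.036, Cd74 −0.013 and Ciita 0.023. With the Schwann cell sum as a covariate H2-Aa was −0.37, H2-Ab1 −0.50, H2-Eb1 −0.40, Cd74 −0.43 and H2-DMb1 −0.26. With the meningeal fibroblast sum H2-Aa was −0.091, H2-Ab1 −0.11, H2-Eb1 −0.0018 and Cd74 −0.10, and with the microglia sum H2-Ab1 was −0.076, H2-Eb1 −0.047 and Cd74 −0.096. Depth limited Ciita most, at 100 to 208 counts per sample.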
